A study of Mus musculus with 6 samples.

Results

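The adrenergic receptor genes Adra1a, Adra1b, Adra1d, Adra2a, Adra2b, Adra2c and Adrb1 were compared between ribosome-bound RNA and input RNA of mouse cerebral cortex. These 7 genes were taken by symbol from the 32531 gene symbols of the deposited count files. All 7 passed the filter on low counts, which left 16506 genes. The samples came from adult, untreated mice of the line Htr4-EGFP/Rpl10a (ES1299), in which Htr4 regulatory sequence drives the ribosomal protein Rpl10a fused to EGFP. Tagged polysomes were captured from dissected cortex with antibodies against EGFP, and the captured RNA (IP, 3 libraries) was set against the input RNA of the same line (input, 3 libraries). Both groups carry the transgene, so the contrast is one of RNA fractions and not of genotype. The series names pyramidal neurons as its subject, but the tag marks any cortical cell in which this transgene is active. The labels do not say whether the libraries came from separate animals, so each p-value reflects only the scatter among these 6 libraries, and that scatter may be technical.

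Noradrenaline reaches the cortex through axons of the locus coeruleus, a brainstem nucleus, and acts there on several classes of G protein-coupled receptor. Alpha1 receptors couple mainly to Gq and raise intracellular calcium through phospholipase C. Alpha2 receptors couple to Gi/o, lower cAMP, and serve both as autoreceptors on noradrenergic terminals and as postsynaptic receptors on cortical neurons. Beta receptors couple to Gs and raise cAMP.

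Depth on genes was 37696125 to 52360452 reads for input and 53147173 to 67559533 reads for IP. Before TMM scaling, a count of 3 reads corresponds to 0.0444 to 0.0796 CPM (counts scaled to a library of standard size). All other CPM values also carry TMM scaling between libraries. Htr4 had 7.88 ± 0.266 CPM in input and 19.9 ± 2.37 CPM in IP (SD, n = 3; log2 fold change 1.34, SE 0.16, edgeR adjusted p = 5.7e-05). Excitatory neuron markers were abundant in both fractions, with summed levels of 3894 to 4410 CPM in input and 4274 to 5875 CPM in IP. Glial markers were depleted in IP: the summed level of 10 astrocyte markers was 3974 to 4573 CPM in input and 836.5 to 1046 CPM in IP, and all 10 fell. All 8 oligodendrocyte, 5 oligodendrocyte precursor and 7 microglial markers fell as well. All 6 markers of layer 5 pyramidal tract neurons rose, and 6 of 7 markers of striatal projection neurons rose, with summed levels of 270.2 to 331.4 CPM in input and 771.6 to 1078 CPM in IP. The remaining striatal marker, Rgs9, fell from 70.2 ± 14.3 to 26.1 ± 5.17 CPM (log2 fold change -1.43, edgeR adjusted p = 6.3e-05). Of the 7 markers of layers 2/3 and 4, 6 fell, as did 5 of 6 tested endothelial and 4 of 5 tested mural markers. Of listed reads, 16.7% to 18.1% in input and 8.60% to 8.92% in IP matched no counted feature. Whether such reads lay inside genes cannot be told from the counts. Reads that matched several genes were 8.12% to 9.83% in input and 1.77% to 1.91% in IP. Those aligned to several places were 21.1% to 23.3% and 32.9% to 35.7%. These shares did not overlap between the fractions, and their part in the results was not tested. Library index and fraction coincide in this design and cannot be told apart.

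The makeup of the family differed between the fractions more than its summed level. The summed level of the 7 genes was 95.7 ± 6.85 CPM in input and 102.3 ± 11.5 CPM in IP, a difference within the spread of the libraries. Of the 7 genes, 4 were higher in IP (Adra1b, Adra1d, Adra2b and Adra2c), 1 was lower (Adra1a), and Adra2a and Adrb1 did not pass the edgeR quasi-likelihood test at a Benjamini-Hochberg adjusted p of 0.05. Over all tested genes the same test called 21.3% higher and 23.4% lower, 44.8% in either direction. The input and IP libraries did not overlap at 5 of the 7 genes, against 56.1% of all tested genes. The median log2 fold change was 0.67 over the 7 genes and -0.015 over all tested genes. Between these bulk fractions, differences in the mix of cells, in RNA per cell and in binding to ribosomes cannot be told apart.

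**Figure D1:**
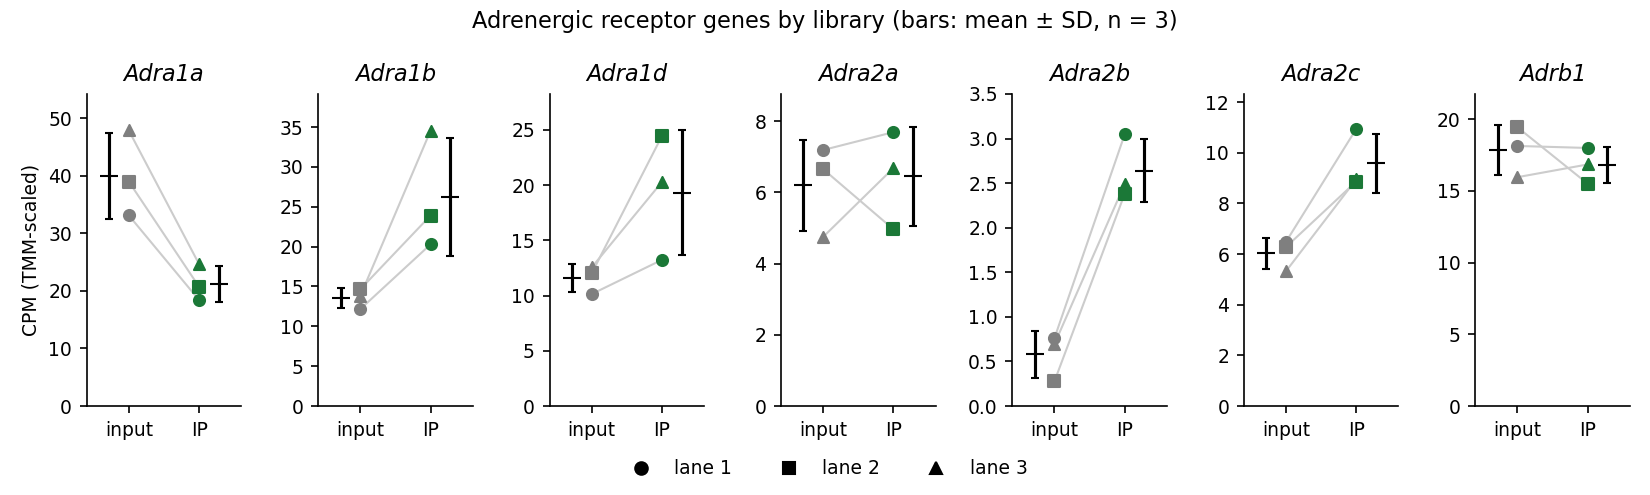
Level of each adrenergic receptor gene in TMM-scaled CPM (vertical axis, from 0, a separate scale for each gene) in the 3 input and 3 IP libraries. Marker shape gives the sequencing lane, grey lines join libraries of a lane, and black bars are mean ± SD. Adra1a is lower in every IP library, Adra1b, Adra1d, Adra2b and Adra2c are higher, and the groups overlap for Adra2a and Adrb1.

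Within the alpha1 class, Adra1a and Adra1b went in opposite directions. Adra1a, the gene of the alpha1A receptor, is at chr14:66635251-66771168 (plus strand) in GRCm38 with GENCODE M21 annotation. It had 33.1, 39.0 and 47.9 CPM in input libraries 1 to 3 and 18.4, 20.7 and 24.7 CPM in the IP libraries, from 1027 to 2341 reads per library. Every IP library lay below every input library. Adra1a fell 1.88-fold, from 40.0 ± 7.43 to 21.3 ± 3.16 CPM (log2 fold change -0.91, SE 0.16, edgeR adjusted p = 0.00081). Lane by lane the log2 differences were -0.85, -0.91 and -0.96, the most even of the called genes between lanes. The call held under all 15 alternatives, with log2 fold changes from -1.03 to -0.72. The glial marker lists given above moved in the same direction and by more (median log2 fold change -3.46 for astrocytes and -3.46 for oligodendrocyte precursors). The endothelial and mural lists also fell by more (medians -3.47 and -2.495), and that of layers 2/3 and 4 fell by less (-0.57). The part of all these lists in the lower level of Adra1a was not tested.

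Adra1b, the gene of the alpha1B receptor, is at chr11:43774606-43901210 (minus strand). Its level was 12.2, 14.6 and 13.8 CPM in input and 20.3, 23.9 and 34.5 CPM in IP. All IP libraries were above all inputs, and IP replicate 3 stood above the other two. Adra1b rose 1.94-fold, from 13.5 ± 1.27 to 26.2 ± 7.41 CPM (log2 fold change 0.95, SE 0.20, edgeR adjusted p = 0.0020), and the call held under all 15 alternatives, with log2 fold changes from 0.71 to 1.12. Markers of layer 5 pyramidal tract neurons (median log2 fold change 1.38) and 6 of 7 of striatal projection neurons (median of the list 1.54) rose in the same libraries. So did 4 of 6 markers of layer 6, while Cplx3 of that list fell (log2 fold change -1.39, edgeR adjusted p = 0.0065). Of 10 markers of GABAergic interneurons, 3 rose (Vip, Sst and Slc32a1) and 7 were not called, against 21.3% of all tested genes called higher. The summed level of the interneuron list was 1160 to 1278 CPM in input and 1351 to 1882 CPM in IP. The part of these markers in the higher levels of Adra1b, Adra1d, Adra2b and Adra2c was not tested.

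Adra1d, the gene of the alpha1D receptor, is at chr2:131545850-131562283 (minus strand). It had 10.1, 12 and 12.5 CPM in input and 13.2, 24.4 and 20.3 CPM in IP, so that IP replicate 1 lay just above the highest input. Adra1d rose 1.67-fold (log2 fold change 0.74, SE 0.21, edgeR adjusted p = 0.015). This call was less firm than those of Adra1a and Adra1b. It ended without input replicate 1 (log2 fold change 0.68, adjusted p = 0.062) and without IP replicate 2 (0.54, adjusted p = 0.059). It also ended with an offset for transcript length and GC content (0.20, adjusted p = 0.49), and the replicate block gave 0.17 with that offset (adjusted p = 0.44). Of the Adra1d exon bases, 7.74% overlap exons of Gm14285 on the opposite strand. Gm14285 has no row of its own in the files, and the strand setting of the counting is not given in the sources used here.

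The shift inside the alpha1 class left its summed level at 65.1 ± 9.42 CPM in input and 66.8 ± 13.9 CPM in IP. Adra1a made up 61.2% ± 2.84 of alpha1 reads in input and 32.2% ± 2.90 in IP, while Adra1b went from 20.9% ± 2.05 to 39.0% ± 4.42 and Adra1d from 17.8% ± 0.798 to 28.8% ± 5.71 (SD, n = 3). These shares and the ratios below come from reads of one library and do not depend on the scaling between libraries. They were not computed with the offset for length and GC content. That offset moved the log2 fold change of Adra1a from -0.91 to -0.72. It moved that of Adra1b from 0.95 to 0.82 and that of Adra1d from 0.74 to 0.20. The log2 ratio of Adra1a to Adra1b reads was 1.45, 1.41 and 1.80 in the input libraries and -0.14, -0.21 and -0.49 in the IP libraries. This ratio of reads, which is not corrected for length, was above 0 in every input library and below 0 in every IP library. Its ratio to Adra1d went from 1.78 ± 0.13 to 0.17 ± 0.37, also without overlap. Both ratios gave p = 0.1 in an exact two-sided permutation test (0.15 adjusted over the 9 ratios compared), a limit set by having 3 libraries a group. The log2 ratio of Adra1b to Adra1d was 0.23 ± 0.08 in input and 0.45 ± 0.42 in IP, with overlapping libraries (exact permutation p = 0.4, adjusted 0.45).

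**Figure D2:**
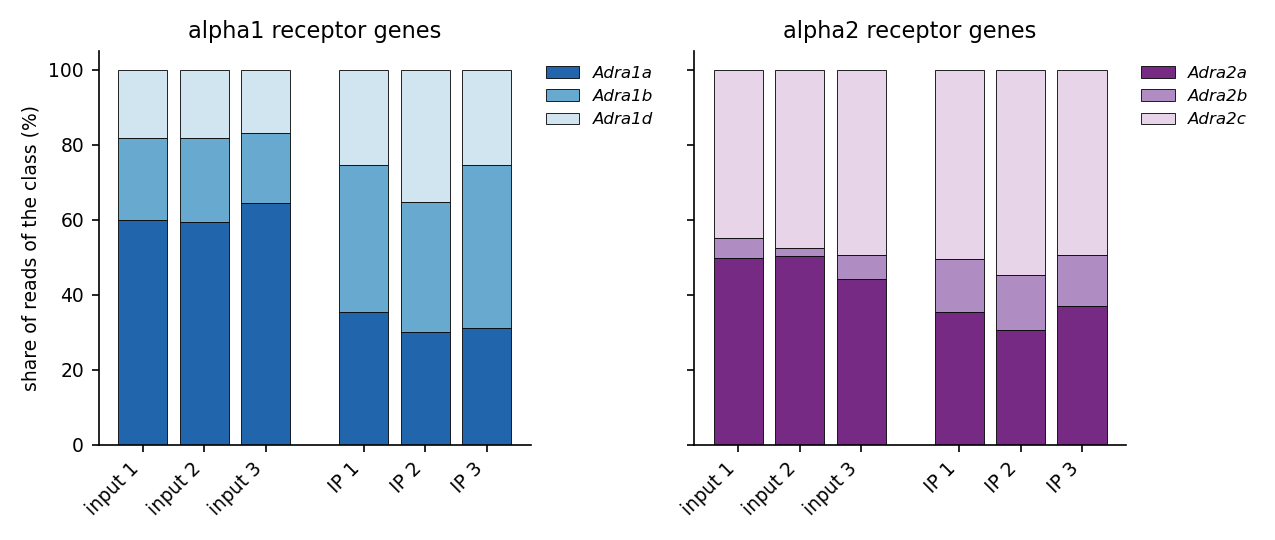
Share of the reads of each receptor class (vertical axis, percent) taken by its genes in each library, for the alpha1 class (left) and the alpha2 class (right). Adra1a takes 59.4% to 64.5% of alpha1 reads in the input libraries and 30.0% to 35.5% in the IP libraries, and Adra2b takes 2.11% to 6.46% of alpha2 reads in input and 13.7% to 14.7% in IP.

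The alpha2 genes each have a single exon in GENCODE M21, and they differed between the fractions. Adra2a did not pass the test, Adra2c rose, and Adra2b rose most of the 7 genes from the lowest level. The promoters of these 3 genes are shown because their genes belong to one class but did not move as one. Each runs from 250 bases before to 50 bases after the start of the RefSeq gene (GRCm38.p6), in the direction of the gene. For Adra2a and Adra2c that RefSeq start lies inside the GENCODE gene, so their windows lie wholly (Adra2a) or almost wholly (Adra2c) within the annotated exon. Capitals mark GC boxes (GGGCGG or CCGCCC), the core of the cAMP response element (TGACG or CGTCA) and TATA boxes (TATAAA or TTTATA). The Adra2a promoter lies at chr19:54045009-54045308 (plus strand), that of Adra2b at chr2:127362929-127363228 (plus strand) and that of Adra2c at chr5:35278316-35278615 (plus strand).
Adra2a: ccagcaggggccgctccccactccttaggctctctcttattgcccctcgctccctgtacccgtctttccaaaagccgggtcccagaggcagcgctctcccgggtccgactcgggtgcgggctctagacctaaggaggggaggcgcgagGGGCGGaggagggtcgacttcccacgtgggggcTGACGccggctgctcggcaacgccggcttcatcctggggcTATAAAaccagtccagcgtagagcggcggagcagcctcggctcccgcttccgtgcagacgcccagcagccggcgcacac
Adra2b: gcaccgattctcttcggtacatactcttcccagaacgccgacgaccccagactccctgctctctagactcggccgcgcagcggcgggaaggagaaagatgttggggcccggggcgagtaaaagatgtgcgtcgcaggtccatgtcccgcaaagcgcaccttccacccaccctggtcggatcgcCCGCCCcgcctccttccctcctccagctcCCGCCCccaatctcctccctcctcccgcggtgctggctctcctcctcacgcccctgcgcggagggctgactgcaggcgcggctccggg
Adra2c: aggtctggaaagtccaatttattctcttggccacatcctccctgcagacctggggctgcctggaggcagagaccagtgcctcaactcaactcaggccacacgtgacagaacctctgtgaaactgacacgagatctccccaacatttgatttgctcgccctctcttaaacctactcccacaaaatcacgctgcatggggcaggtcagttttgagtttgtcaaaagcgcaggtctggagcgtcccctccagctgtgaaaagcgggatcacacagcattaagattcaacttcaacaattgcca

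The Adra2a promoter held 1 GC box, 1 cAMP response element core and 1 TATA box, the Adra2b promoter 2 GC boxes and neither of the others, and the Adra2c promoter none of the 3 motifs. On either strand, a GC box was found in 35.7% of the 32851 promoters of that table, the cAMP response element core in 20.8% and the TATA box in 13.6%. GC content was 68.7% for Adra2a, 68.0% for Adra2b and 51.3% for Adra2c, against a median of 52.7% over all promoters. These are matches of letters in a fixed window and do not show binding. Promoters of 5 of the 7 genes are in the table. Those of Adrb1 (72.3% GC) and of the start of Adra1b at chr11:43836440-43836739 (71.3% GC) were also GC-rich, whereas the other Adra1b start had 42.3% GC.

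Adra2a encodes the alpha2A receptor, an autoreceptor of noradrenergic neurons that is also postsynaptic on cortical pyramidal cells, and is at chr19:54044151-54048982 (plus strand). Its level was 7.19, 6.65 and 4.75 CPM in input and 7.69, 4.97 and 6.68 CPM in IP. The libraries of the groups were interleaved. The log2 fold change was 0.06 (SE 0.25, edgeR adjusted p = 0.88), with a 95% interval from -0.50 to 0.61, so that changes of that size in either direction are not resolved by these libraries. Within lanes it was 0.10, -0.42 and 0.49, and no alternative called it.

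Adra2b, the gene of the alpha2B receptor, is at chr2:127363208-127367221 (plus strand). It was covered by 28, 14 and 34 reads in the input libraries and by 170, 166 and 170 reads in the IP libraries. In CPM these are 0.762, 0.278 and 0.696 in input and 3.05, 2.38 and 2.49 in IP, and every IP library lay above every input library. Adra2b rose 4.57-fold (log2 fold change 2.19, SE 0.51, edgeR adjusted p = 0.0043), with the widest 95% interval of the 7 genes, from 1.08 to 3.302. Only 0.57% of tested genes had a larger log2 fold change. The call held under all 15 alternatives, with log2 fold changes from 1.84 without input replicate 2 to 2.46. One of them, a filter of 1 CPM or more in 3 libraries, was passed by Adra2b only through its IP libraries. That alternative therefore does not count as support for the call.

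Adra2c, the gene of the alpha2C receptor, is at chr5:35278319-35281763 (plus strand). It had 6.48, 6.28 and 5.32 CPM in input and 10.9, 8.87 and 8.95 CPM in IP, with no overlap. Adra2c rose 1.59-fold, from 6.03 ± 0.620 to 9.59 ± 1.17 CPM (log2 fold change 0.67, SE 0.20, edgeR adjusted p = 0.017). The call was just lost without input replicate 2 (adjusted p = 0.052), without input replicate 3 (adjusted p = 0.062) and without IP replicate 1 (adjusted p = 0.056). With the offset for length and GC content it was not called either (0.35 on the log2 scale, adjusted p = 0.18), and adding the replicate block gave 0.34 (adjusted p = 0.19). The offset ended the calls of Adra1d and Adra2c and of no other receptor gene. It corrects for length and GC content together, and their separate parts were not tested.

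Within the alpha2 class, the share of Adra2a reads differed between the fractions. The log2 ratio of Adra2a to Adra2c was 0.15, 0.08 and -0.16 in input and -0.51, -0.84 and -0.42 in IP. The log2 ratio of Adra2b to Adra2c went from -3.48 ± 0.85 to -1.86 ± 0.03, with differences of 1.23, 2.56 and 1.07 within lanes 1, 2 and 3. That of Adra2a to Adra2b went from 3.50 ± 0.92 to 1.27 ± 0.19. None of these 3 ratios overlapped between the groups (two-sided exact permutation p = 0.1 for each, the smallest possible, and 0.15 adjusted over the 9 ratios). The summed alpha2 level was 12.8 ± 1.87 CPM in input and 18.7 ± 2.77 CPM in IP.

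Adrb1, the gene of the beta1 receptor, is at chr19:56722199-56733113 (plus strand). It had 18.1, 19.5 and 16.0 CPM in input and 18.0, 15.5 and 16.9 CPM in IP, and the groups overlapped. The log2 fold change was -0.09 (SE 0.15, edgeR adjusted p = 0.66), and its 95% interval from -0.42 to 0.24 is the narrowest of the 7 genes. No alternative called it, and the log2 fold change ran from -0.29 with the length and GC offset under the replicate block to 0.001 with total counts. The alpha2 class was also set against Adrb1 within each library. The log2 ratio of alpha2 to Adrb1 reads was -0.49 ± 0.13 in input and 0.15 ± 0.11 in IP, with no overlap and changes of 0.60, 0.62 and 0.67 in the 3 lanes (exact permutation p = 0.1, adjusted 0.15). Ratios of the alpha1 class to either overlapped between the groups. Its log2 ratio to Adrb1 was 1.86 ± 0.32 in input and 1.97 ± 0.39 in IP (exact permutation p = 0.9, adjusted 0.9), and its log2 ratio to the alpha2 class was 2.35 ± 0.42 and 1.83 ± 0.49 (exact permutation p = 0.3, adjusted 0.39).

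**Figure D3:**
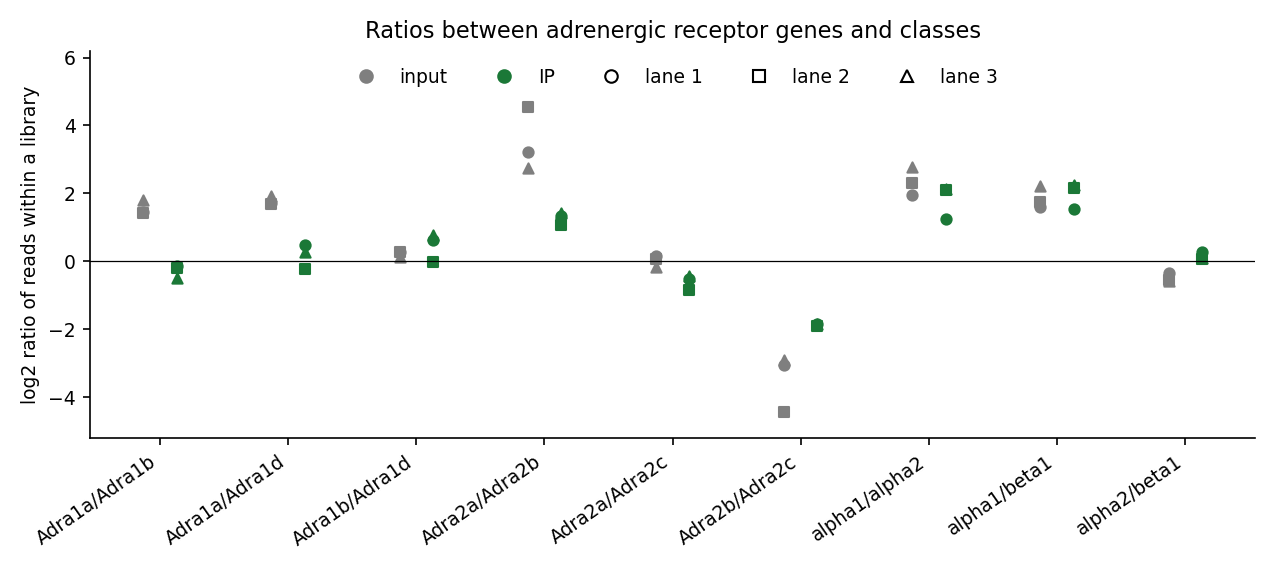
Log2 ratio of reads between 2 adrenergic receptor genes or classes within a library (vertical axis) for the 9 ratios, with input libraries in grey and IP libraries in green. Marker shape gives the lane. Ratios of Adra1a to the other alpha1 genes lie lower in IP, at -0.49 to 0.48 against 1.41 to 1.93 in input, and the ratio of alpha1 to Adrb1 reads overlaps between the groups.

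**Figure D4:**
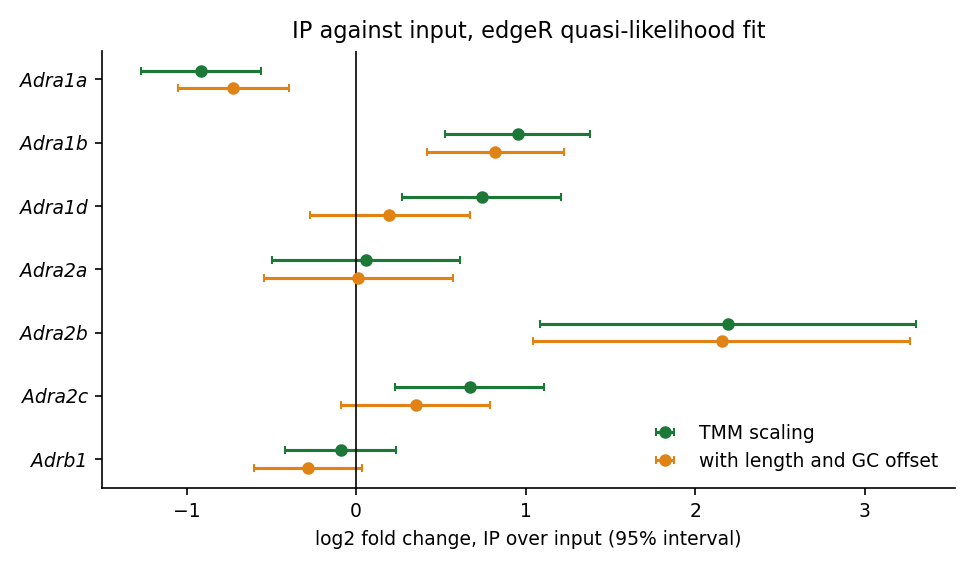
Log2 fold change of each gene, IP over input, with its 95% interval (horizontal axis), in the edgeR fit with TMM scaling (green) and with an added offset for exon length and GC content (orange). The offset moves Adra1d from 0.74 to 0.20 and Adra2c from 0.67 to 0.35, where their intervals reach 0, and leaves Adra2b at 2.16.

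Levels of the 7 receptor genes were set side by side per kilobase of exon, using GENCODE M21 lengths. In input, Adra1d (6.09 ± 0.666 CPM per kb), Adrb1 (5.28 ± 0.521), Adra1a (4.59 ± 0.851) and Adra1b (3.999 ± 0.375) formed a run in which each gene overlapped its neighbour. Adra2c (1.75 ± 0.180), Adra2a (1.28 ± 0.266) and Adra2b (0.144 ± 0.0654) followed, each clear of the one before. In IP the order was Adra1d (10.2 ± 2.98 CPM per kb), Adra1b (7.76 ± 2.19), Adrb1 (4.96 ± 0.368), Adra2c (2.78 ± 0.340), Adra1a (2.44 ± 0.362), Adra2a (1.33 ± 0.285) and Adra2b (0.658 ± 0.0890). There Adra1d overlapped Adra1b and Adra2c overlapped Adra1a, and the other neighbours did not overlap. The order depends on the length used. Adra1a has 8728 exon bases, 1412 of them coding, and Adra1d 1899, 1686 of them coding. Per kilobase of coding sequence, Adra1a came first in input (28.3 ± 5.26) and Adra1b first in IP (17.0 ± 4.80), and Adra1d came after Adra1a, Adra1b and Adrb1 in both. Adra2a (4.44 ± 0.920) and Adra2c (4.39 ± 0.451) then overlapped in input, with Adra2a ahead, and in IP Adra1a moved from rank 5 to rank 2 and Adra2c from rank 4 to rank 5. Adra2b was lowest by either length in both fractions.

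Genes with the profile most like each called member over the 6 libraries were found by Euclidean distance of centred log2 CPM among 12181 tested genes. Nearest to Adra1a were Trim39, Pvr and Ntrk2 (distances 0.16, 0.16 and 0.16), and nearest to Adra1b were Rnf152, Stac2 and Spryd3 (0.18, 0.22 and 0.23). Gpd1, Gucy2g and Rhno1 were nearest to Adra1d (0.23, 0.25 and 0.27), and Pde1b, Rbm17 and Timm10b to Adra2c (0.08, 0.11 and 0.11). Adra2b had no gene as close, with Calb2, AW551984 and Dach2 at 0.79, 0.82 and 0.87. Its input libraries held only 14 to 34 reads of the gene, and the part of counting noise in these distances was not tested.

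Genes that supply or clear noradrenaline changed in both directions. Of the 9 tested genes of 11 on the list, 3 rose and 2 fell (median log2 fold change 0.70). The same test called 21.3% of all tested genes higher and 23.4% lower. Dbh, the enzyme that makes noradrenaline from dopamine, had 14, 6 and 16 reads in the input libraries and 0, 93 and 8 in the IP libraries, so its IP signal sat almost wholly in IP replicate 2 (edgeR adjusted p = 0.63). Slc6a2, the noradrenaline transporter of noradrenergic neurons, had 1 to 3 reads in every library and was not tested. Th, the rate-limiting enzyme of catecholamine synthesis, which is shared with dopamine neurons, rose from 0.868 ± 0.217 to 3.61 ± 2.24 CPM (log2 fold change 2.06, adjusted p = 0.0061). Its IP libraries had 1.69, 3.07 and 6.07 CPM, and without IP replicate 3 the log2 fold change was 1.465 (adjusted p = 0.035). Slc22a3, a low-affinity monoamine transporter, had 0.953, 1.01 and 2.58 CPM in input and 6.87, 4.88 and 5.16 CPM in IP (log2 fold change 1.89, adjusted p = 0.0028), and without input replicate 3 the log2 fold change was 2.526. Maob, a monoamine oxidase, fell from 13.6 ± 1.55 to 6.99 ± 2.96 CPM (log2 fold change -0.96, adjusted p = 0.011), while Maoa had 26.1 ± 3.33 and 22.6 ± 1.54 CPM (adjusted p = 0.25). The vesicular monoamine transporter gene Slc18a2 fell with a log2 fold change of -0.66 (adjusted p = 0.019), and this call was lost without input replicate 2 (adjusted p = 0.056), input replicate 3 (adjusted p = 0.084) or IP replicate 1 (adjusted p = 0.062).

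Downstream of the alpha1 receptors, 3 of 15 genes of Gq signalling rose and 3 fell (median log2 fold change 0.24). Among all tested genes, 21.3% were called higher and 23.4% lower. Prkce, the epsilon isoform of protein kinase C, rose from 585.8 ± 27.1 to 822.3 ± 101 CPM (log2 fold change 0.49, adjusted p = 0.0016). Prkcb, the beta isoform, had 2372 ± 244 and 2369 ± 69.2 CPM (adjusted p = 0.98). Of the 3 genes that fell, Itpr2, an IP3 receptor gene, went from 9.37 ± 1.03 to 1.44 ± 0.690 CPM (log2 fold change -2.70), Plcb3, a phospholipase C gene, from 2.52 ± 0.284 to 0.676 ± 0.0851, and Prkcd from 2.90 ± 0.844 to 1.09 ± 0.475. The call of Prkcd was lost without any 1 input library or without IP replicate 1 (adjusted p from 0.054 to 0.15), and with the length and GC offset under the replicate block (adjusted p = 0.056). Plcb1 rose by 0.25 on the log2 scale (adjusted p = 0.035), a call that ended without input replicate 1 (adjusted p = 0.070), input replicate 2 (0.17), IP replicate 1 (0.071) or IP replicate 3 (0.067), with RLE size factors (0.053) and with a filter of 1 CPM (0.075).

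Of 11 genes of Gi/o signalling and its channels, 5 rose and 1 fell (median log2 fold change 0.29), all by less than 2-fold. The shares called over all tested genes were 21.3% higher and 23.4% lower. The count of 5 dropped to 2 without input replicate 2, input replicate 3 or IP replicate 3 and to 3 without input replicate 1. The inhibitory G protein genes Gnai1 and Gnai2 kept their calls under 9 and 6 of 15 alternatives. Gnao1, the gene of the Go alpha subunit, rose from 1519 ± 70.1 to 1854 ± 62.6 CPM (log2 fold change 0.29, adjusted p = 0.0089), and Gnaz, a Gi-family alpha subunit gene, from 64.8 ± 6.43 to 99.3 ± 6.80 CPM (log2 fold change 0.61). Among the genes of GIRK potassium channels, which Gi/o-coupled receptors open, Kcnj6 fell from 77.7 ± 7.37 to 47.0 ± 9.57 CPM (log2 fold change -0.73, adjusted p = 0.0015). Kcnj9 rose (log2 fold change 0.40, adjusted p = 0.031) although its libraries overlapped, and that call ended without any 1 input library, IP replicate 2 or IP replicate 3 (adjusted p from 0.056 to 0.11).

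Of 22 tested genes of Gs and cAMP signalling, 12 rose and 5 fell (median log2 fold change 0.33), while Adrb1 itself did not pass. Over all tested genes 21.3% were called higher and 23.4% lower, and the list was not tested as a set. Gnas, the gene of the Gs alpha subunit, rose from 1041 ± 76.0 to 1575 ± 54.2 CPM (log2 fold change 0.60, adjusted p = 0.00013). The protein kinase A subunit genes Prkaca and Prkar1a rose from 215.3 ± 8.21 to 425.6 ± 42.0 CPM and from 1063 ± 72.9 to 1806 ± 125 CPM. The cAMP-activated exchange factor gene Rapgef4 fell from 403.0 ± 32.2 to 193.5 ± 3.52 CPM (log2 fold change -1.06, adjusted p = 3.0e-06). The adenylyl cyclase gene Adcy7 fell with a log2 fold change of -1.31 from 2.58 ± 0.614 CPM, a call lost without any 1 input library or IP replicate 3 (adjusted p from 0.051 to 0.13) and with the length and GC offset under the replicate block (adjusted p = 0.054). Adcy6 fell from 20.6 ± 1.06 to 13.2 ± 1.82 CPM.

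Of 14 genes for receptor kinases, arrestins and scaffolds, 4 rose and 3 fell (median log2 fold change -0.05). For all tested genes the shares called were 21.3% higher and 23.4% lower. The kinases that phosphorylate active adrenergic receptors were split. Adrbk1, also called Grk2, rose from 55.5 ± 4.92 to 81.2 ± 13.7 CPM (log2 fold change 0.55, adjusted p = 0.0050) and Adrbk2, also called Grk3, fell from 86.0 ± 6.18 to 53.8 ± 7.18 CPM (log2 fold change -0.68, adjusted p = 0.00070). Rgs2, a regulator of Gq signalling, Grk6 and Arrb2 (an arrestin gene) rose with log2 fold changes of 0.82, 0.80 and 0.78. Rgs4, another regulator of G protein signalling, had 635.4 ± 20.4 and 620.9 ± 50.8 CPM (adjusted p = 0.77). Grk5 and Magi2 fell with log2 fold changes of -0.56 and -0.24, but their calls held under 8 and 5 of 15 alternatives, and Magi2 was at 0.007 with the length and GC offset.

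**Figure D5:**
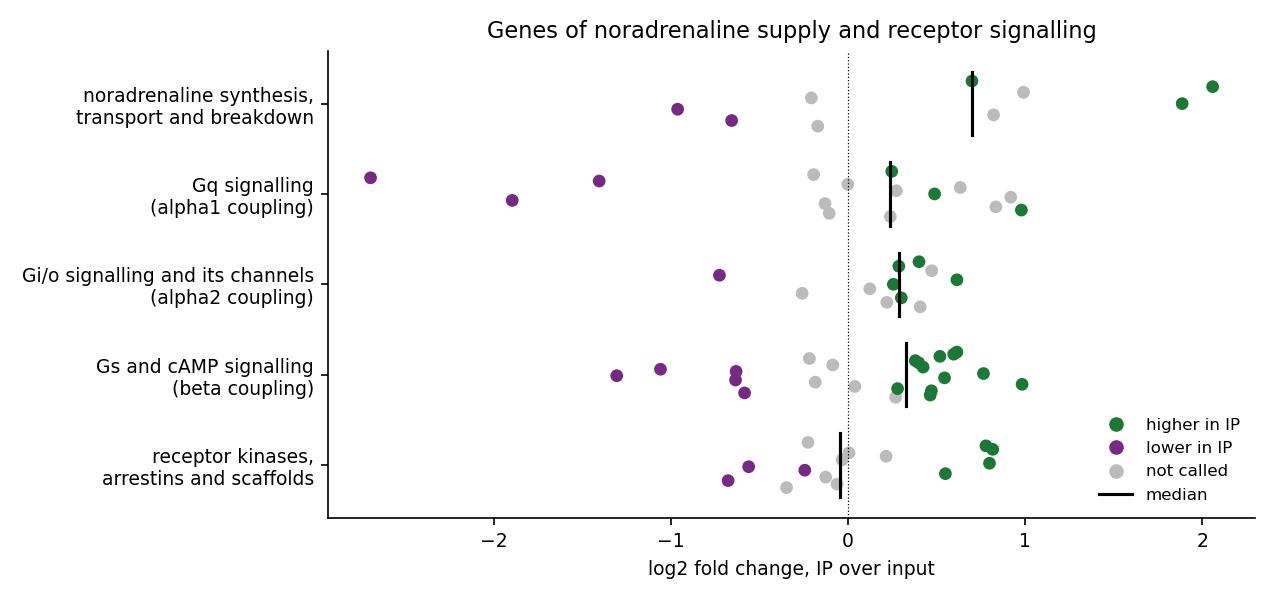
Log2 fold change, IP over input (horizontal axis), of the tested genes of 5 lists for noradrenaline supply and receptor signalling. Points are genes, coloured by the edgeR call at an adjusted p of 0.05, spread vertically for legibility, and black lines are list medians. Medians run from -0.05 for receptor kinases, arrestins and scaffolds to 0.70 for noradrenaline supply, and every list holds genes called in both directions.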

How the data were processed

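RNA bound to EGFP-tagged ribosomes (3 IP libraries) and input RNA (3 libraries) were grouped by the sample titles. Each file deposited by the authors lists unnormalized read counts by gene symbol. STAR 2.0.0e, HTSeq and the build mm10 are named per the submitters' processing notes. Annotation, HTSeq version and strand setting were not given in the sources used here. Totals and tests excluded rows without a gene, whose shares by fraction stand beside the depth, and at most 2 reads called unknown. Counting error only is covered by the 3-read floor.

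The counts were tested across all genes by quasi-likelihood in edgeR 4.0.16 under R 4.3.3 (TMM scaling, filterByExpr, group term, two-sided, Benjamini-Hochberg over 16506 genes, adjusted p under 0.05), checked on simulated data. CPM values use TMM-scaled library sizes of gene rows. SE values derive from the test statistic. Ratios used reads plus 0.5. Chi-square per degree of freedom was 23.2 to 68.8 between libraries of a group, so none were copies. Exon lengths, coding lengths and GC content came from GENCODE M21 (GRCm38, the assembly of mm10) and promoters from RefSeq. The length and GC offset fitted each library's deviations with robust splines (MASS) on the 87.7% of tested genes with both values.

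Alternatives were DESeq2 1.42.0, limma-voom (limma 3.58.1), RLE size factors, total counts, no filter, a filter of 1 CPM or more in 3 libraries, the replicate block, the length and GC offset with and without the block, and leaving out each library. Replicate number equals sequencing lane in the labels, which pairs 1 input with 1 IP library per lane. Deviations from group means correlated at 0.089, 0.067 and 0.044 for libraries of a lane, against -0.060 to -0.00092 otherwise.

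The members and the gene lists were chosen with earlier results of these data known, so no p of a gene was adjusted over them alone and no list was tested as a set. The permutation p of the ratios was adjusted over the 9 ratios. All members are named. In each pathway list the gene of highest mean CPM and up to 3 called genes with the largest changes in each direction were eligible, and any gene of the noradrenaline list. Gnas, Gnai1 and Adrbk1 fall outside this rule and were chosen after their values were seen, and Htr4 is named as the driver of the tag. Genes most like a called member were the 3 nearest with a mean of at least 1 CPM, leaving out predicted genes. Some genes of the lists are not reported here.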

Additional observations from a re-analysis of the deposited data

How the results depend on the processing

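Adra1a, Adra1b and Adra2b kept their direction and their call under all 15 alternatives, and Adra2a and Adrb1 were called under none. Adra2b passed the filter of 1 CPM in 3 libraries only through its IP libraries, so that alternative does not count as support for its call. With the length and GC offset, with and without the replicate block, 2 receptor genes were called higher in place of 4: Adra1d was at 0.197 and 0.175 with the block, and Adra2c at 0.352 and 0.339 (log2). Leaving out 1 library gave 0.54 to 0.957 for Adra1d and 0.571 to 0.742 for Adra2c. The replicate block without the offset changed no call of a receptor gene and called 3607 genes higher and 3966 lower over all genes. Without 1 lane, the change in the log2 ratio of Adra1a to Adra1b ran from -1.951 to -1.603, and that of alpha1 to Adrb1 from -0.031 to 0.21, turning its sign without replicate 2. Per kilobase of coding length, input and IP levels were 28.3 and 15.1 for Adra1a, 8.75 and 17.0 for Adra1b, 4.44 and 4.62 for Adra2a, 0.426 and 1.94 for Adra2b, 4.39 and 6.98 for Adra2c, and 12.8 and 12.01 for Adrb1. The input level of Adra1d was 6.86.

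With the offset, 5 Gq genes were called higher, 2 Gi/o genes lower and 0 receptor kinase, arrestin and scaffold genes lower, with and without the block. The Gi/o list also had 2 genes lower with DESeq2, RLE size factors and the 1 CPM filter, and 3 higher with that filter. Total counts left 1 kinase, arrestin and scaffold gene lower. Leaving out 1 library gave 1 to 2 noradrenaline genes lower, 2 to 4 Gi/o genes higher and 1 to 2 kinase, arrestin and scaffold genes lower. The cause of these differences was not tested. With 14 to 34 input reads per library, depth limits the precision of Adra2b.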
